A study of Homo sapiens with 2 samples.

Results

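To follow the adherens junction and vimentin through acquired erlotinib resistance, 9 genes were examined probe set by probe set: the cadherins CDH1, CDH2, CDH3, CDH6 and CDH11, the catenins CTNNA1, CTNNB1 and CTNND1, and VIM. They were chosen by name, and every probe set that the platform annotation assigns to 1 of them alone was taken, which gave 25 of 41097 probe sets with 1 gene symbol, for 8 of 19775 genes. CTNND1, which encodes p120 catenin, had none, because its 4 probe sets also carry the symbol of the readthrough gene TMX2-CTNND1, and no value is given for it. HCC4006 is a human NSCLC cell line with an EGFR exon 19 deletion, and it is sensitive to erlotinib. HCC4006ER cells carry the same deletion and are labelled erlotinib resistant with an EMT phenotype. They were derived from HCC4006 cells under rising erlotinib, given from 3 nM upward for 3 months and later raised to 4 μM. Single-cell clones were made from them in the study under names of their own, and the array sample carries the name of the bulk population. The study's RNA methods name no further treatment of either line, and RNA was taken after 48 hours of culture. They do not say whether HCC4006ER cells were kept in erlotinib during that time. For each line, 3 RNA preparations were mixed and hybridized to 1 Affymetrix HG-U133 array, so there is no replicate, no test and no SD between samples in what follows.

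Classical cadherins are calcium-dependent adhesion receptors that bind the same kind of cadherin on the neighbouring cell. Their cytoplasmic tails bind β-catenin (CTNNB1) and p120 catenin, and α-catenin (CTNNA1) connects β-catenin to actin. E-cadherin (CDH1) and P-cadherin (CDH3) are typical of epithelia, while N-cadherin (CDH2), cadherin-11 (CDH11) and the intermediate filament protein vimentin (VIM) are typical of mesenchymal cells. A loss of E-cadherin with a gain of N-cadherin is known as the cadherin switch and is commonly used as a sign of EMT.

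The values are MAS5 signals, a linear measure of probe set brightness. Genes for smell and bitter taste receptors, with 127 probe sets, set the background level at their 95th percentile, 96.2 for HCC4006 and 91.6 for HCC4006ER. Where only the dim signal of a probe set lay under its level, the level took its place and the fold is a lower bound, written as at least N-fold. No fold is given where both signals lay under it, or where the level was above the brighter signal. Between probe sets of a gene above background on both arrays, the log2 fold varied with a pooled SD of 0.27 over 5264 genes, a measure that leaves out variation between cultures and arrays. The signals of 9 hybridization control probe sets had ratios of 0.959 to 1.43. The ratio of 3′ to 5′ signal, a sign of RNA integrity, was 0.933 and 0.890 for GAPDH and 1.09 and 1.09 for ACTB in HCC4006 and HCC4006ER. All 8 epithelial markers examined were above background on both arrays and lay within 1.5-fold, and HCC4006ER is the line labelled EMT. Of all 11896 genes with a brighter signal above background, 9618 lay within 1.5-fold, so most genes did. Among the epithelial markers was EPCAM, whose mRNA the study measured as lower in HCC4006ER cells by quantitative RT-PCR.

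N-cadherin, cadherin-11 and vimentin were higher in HCC4006ER cells, by 2.05-fold, 2.45-fold and 1.53-fold in the brightest probe set of each gene. E-cadherin was not lower in either of its probe sets. P-cadherin, α-catenin and β-catenin had ratios under 1 in their brightest probe sets but lay within 1.5-fold, and cadherin-6 was at the background level. The deposited signals therefore showed a higher N-cadherin signal beside a nearly equal E-cadherin signal. For E-cadherin, the study reported a loss in HCC4006ER cells at the mRNA and protein levels. Its mRNA result came from its microarray data as well as from quantitative RT-PCR. The deposited array signals did not show this loss in either probe set.

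Of the 25 probe sets, 14 were above background on both arrays, 4 on 1 array and 7 on neither. Among the 18 above background on at least 1 array, 6 were higher past 1.5-fold in HCC4006ER cells and 0 were lower. Among all 21895 probe sets of 1 gene with a brighter signal above background, 9.25% were higher and 10.1% were lower, or 19.4% in either direction. The 6 belong to 3 genes, with 2 for CDH2, 3 for CDH11 and 1 for VIM, and those of 1 gene read 1 transcript pool, so they are not independent counts. With 1 probe set per gene, 3 of the 8 genes were higher and 0 lower, where the background over 11896 genes was 7.99% higher and 11.2% lower, or 19.1% in either direction. Of all genes past 1.5-fold, 58.3% were lower as deposited and 37.4% when both arrays were given equal medians, a scaling that raises every log2 fold by 0.14. The median log2 fold of the 8 genes was -0.0062, and that of all 11896 genes was -0.037.

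**Figure D1:**
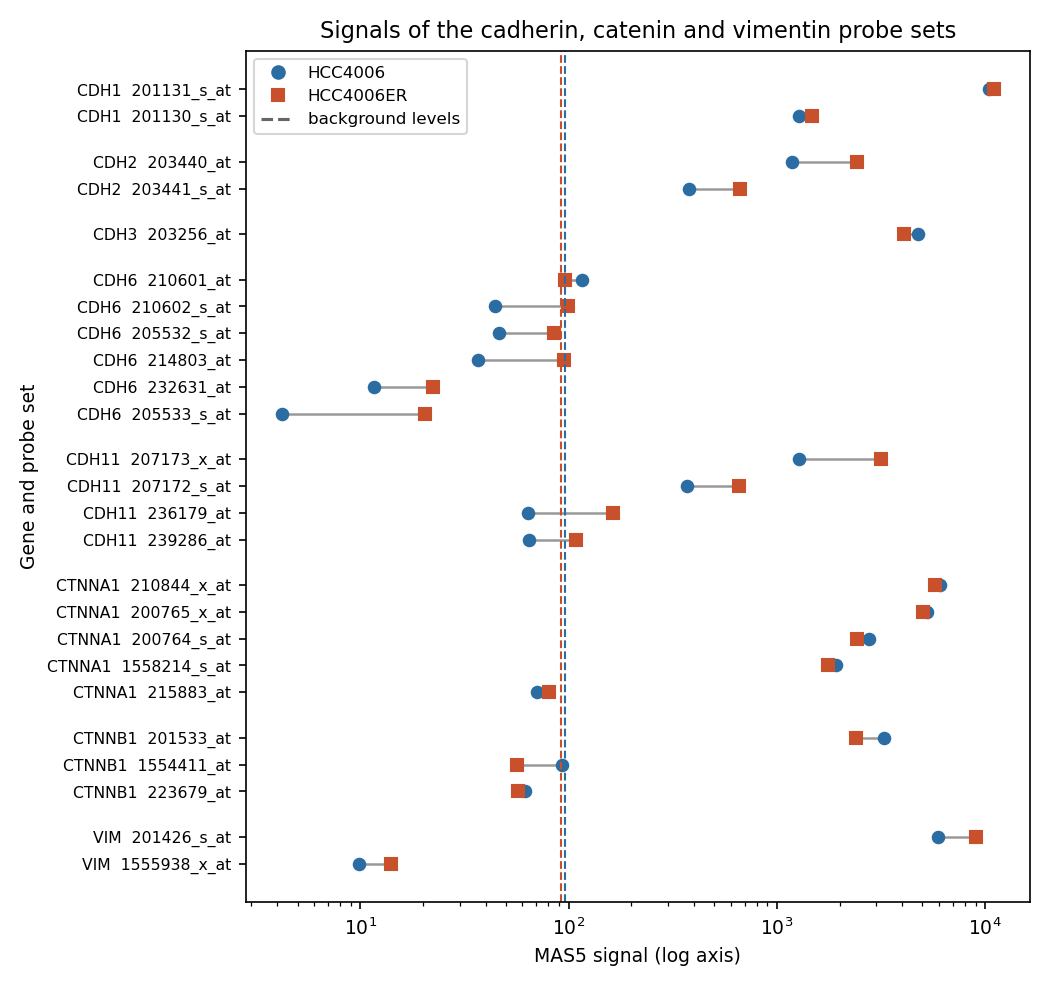
MAS5 signal (log axis) of the 25 probe sets, with circles for HCC4006, squares for HCC4006ER and dashed lines for the background levels of 96.2 and 91.6. The squares of CDH2, CDH11 and the bright VIM probe set lie to the right of their circles, the symbols of CDH1 nearly coincide, and the CDH6 probe sets lie around or under the dashed lines.

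Promoter sequences from RefSeq (GRCh38.p14) are shown for CDH2 and VIM, the genes past 1.5-fold that have an entry in the table used. Of the 9 genes, 4 had entries (CDH2, CTNNA1, CTNNB1 and VIM), and CDH1, CDH3, CDH6, CDH11 and CTNND1 had none. Each window holds the 250 bases before a transcript start, 5′ to 3′ on the strand of the gene. CDH2 has 2 annotated starts, both on the minus strand, with windows at chr18:28177131-28177380 and chr18:28036642-28036891, and the VIM window is at chr10:17227991-17228240 on the plus strand. Capitals mark the GC box (GGGCGG or CCGCCC, the motif of SP1) and the general E-box (CANNTG, its own reverse complement).
CDH2 start 1: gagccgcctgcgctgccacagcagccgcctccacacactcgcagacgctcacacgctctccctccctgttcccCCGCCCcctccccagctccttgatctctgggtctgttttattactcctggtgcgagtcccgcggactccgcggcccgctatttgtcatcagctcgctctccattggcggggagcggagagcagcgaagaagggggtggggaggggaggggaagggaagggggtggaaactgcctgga
CDH2 start 2: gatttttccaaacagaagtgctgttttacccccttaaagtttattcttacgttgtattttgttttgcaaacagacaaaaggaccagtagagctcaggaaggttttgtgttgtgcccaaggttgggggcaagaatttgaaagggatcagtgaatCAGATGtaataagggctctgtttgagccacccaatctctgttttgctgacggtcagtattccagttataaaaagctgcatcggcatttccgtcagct
VIM: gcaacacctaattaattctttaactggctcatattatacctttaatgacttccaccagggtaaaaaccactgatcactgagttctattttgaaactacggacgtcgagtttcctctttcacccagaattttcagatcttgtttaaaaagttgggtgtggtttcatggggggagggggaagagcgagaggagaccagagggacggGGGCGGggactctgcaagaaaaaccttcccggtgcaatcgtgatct
The first CDH2 window and the VIM window each held 1 GC box, a motif found in 42.6% of 35116 windows of the same length in the table. The second CDH2 window held 1 E-box, a motif found in 61.8% of windows. The specific E-box CAGGTG or CACCTG, which ZEB and SNAIL repressors recognize and which is a form of CANNTG, was in none of these 3 windows and in 17.5% of all windows. Among the genes within 1.5-fold, the CTNNB1 window held 3 GC boxes and no E-box, and the 4 CTNNA1 windows, some of which overlap, held 9, 4, 0 and 0 GC boxes and 0, 0, 1 and 2 E-boxes. A match is a description of the letters and not a measured site.

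E-cadherin, the receptor that holds epithelial cells together, was read by 2 probe sets. The brighter (201131_s_at) gave 10469 in HCC4006 cells and 11041 in HCC4006ER cells, a log2 fold of 0.08. The dimmer (201130_s_at) gave 1274 and 1476, a log2 fold of 0.21. Both probe sets were therefore slightly higher in HCC4006ER cells, by less than the 0.27 SD between probe sets, and neither passed 1.5-fold. Of all 11896 genes, 37.6% were at least as high as CDH1.

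P-cadherin, the cadherin of basal epithelial layers, had 1 probe set (203256_at), with signals of 4770 in HCC4006 cells and 4081 in HCC4006ER cells. Its log2 fold of -0.23 was also within the SD between probe sets. Both epithelial cadherins were thus far above background on both arrays.

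N-cadherin, the cadherin of neural and mesenchymal cells, was read by 2 probe sets that differed in the same direction. The brighter (203440_at) gave 1181 in HCC4006 cells and 2419 in HCC4006ER cells, which is 2.05-fold higher. The dimmer (203441_s_at) gave 378 and 665, which is 1.76-fold higher. N-cadherin was well above background in HCC4006 cells too, so the gene was already measured in the parental line. The mean log2 fold of both probe sets was 0.93 ± 0.15 (SD between probe sets). Only 2.23% of the 11896 genes were at least as high as CDH2 in its brighter probe set.

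The difference between the cadherins of the switch was 0.96 on the log2 scale, that is, the ratio of CDH2 exceeded the ratio of CDH1 by 1.94-fold. This difference is untouched by any common scaling of an array. Over the 4 pairings of a CDH2 with a CDH1 probe set it ran from 0.60 to 0.96, so the sign was the same in each. The CDH11 ratio exceeded the CDH1 ratio by 2.32-fold (log2 0.62 to 1.22 over 4 pairings), and the VIM ratio did so by 1.45-fold (log2 0.40 to 0.54 over 2 pairings). These ratios show that the genes differed unequally between the arrays, not that CDH1 was the same.

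Cadherin-11, a type II cadherin known from osteoblasts and mesenchymal cells, showed the largest difference of the 8 genes, and all 4 of its probe sets were brighter in HCC4006ER cells. The brightest (207173_x_at) gave 1284 and 3147, which is 2.45-fold higher, but the suffix _x_ marks probe sets of which some probes can match other transcripts. The next (207172_s_at) gave 369 and 658, which is 1.78-fold higher. A dimmer probe set without such a suffix (236179_at) was under background in HCC4006 cells, at 64.2, and read 163 in HCC4006ER cells, which is at least 1.70-fold higher. The dimmest (239286_at) gave 64.7 and 108, at least 1.12-fold higher. Of the 11896 genes, 1.21% were at least as high as CDH11.

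Cadherin-6, a type II cadherin first known from kidney, was near or under background in all 6 probe sets. The brightest (210601_at) gave 116 in HCC4006 cells and 95.7 in HCC4006ER cells, a log2 fold of -0.28. The other 5 probe sets read 4.20 to 46.4 in HCC4006 cells and 20.4 to 99.2 in HCC4006ER cells. All 5 were higher in HCC4006ER cells by the measured ratio, with log2 folds of 0.88 to 2.28, opposite to the brightest. None of the 5 was above background in HCC4006 cells, and against the background level the largest bound was at least 1.03-fold, so no direction is given for CDH6.

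α-Catenin, the link from the cadherin complex to actin, had 4 probe sets above background on both arrays, the most of the 8 genes. They gave 6083, 5230, 2784 and 1913 in HCC4006 cells and 5718, 5020, 2430 and 1768 in HCC4006ER cells. All 4 were lower in HCC4006ER cells by small amounts, with a mean log2 fold of -0.11 ± 0.059 (SD between probe sets), within 1.5-fold and within the 0.27 SD. The brightest pair carries the suffix _x_. With equal array medians the log2 fold of the brightest turned from -0.09 to 0.05, so its direction depends on the scaling. It stayed at -0.09 with quantile normalization and with equal medians over probe sets above background. The fifth probe set (215883_at) was not well above background, at 70.5 and 80.4.

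β-Catenin, which is both the junction's adaptor and the transcriptional effector of WNT signalling, was the lowest of the 8 genes. Its bright probe set (201533_at) gave 3253 in HCC4006 cells and 2399 in HCC4006ER cells, which is 1.36-fold lower. That log2 fold of -0.44 exceeds the SD between probe sets but not the 1.5-fold threshold, and 16.9% of all genes were at least as low. The other probe sets were not well above background, at 92.6 and 61.5 in HCC4006 cells and 56.7 and 57.0 in HCC4006ER cells.

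Vimentin, the main intermediate filament protein of mesenchymal cells, was bright on both arrays. Its bright probe set (201426_s_at) gave 5926 in HCC4006 cells and 9057 in HCC4006ER cells, which is 1.53-fold higher and just past the threshold. Of the 11896 genes, 7.45% were at least as high. The second probe set (1555938_x_at) was not well above background, at 9.86 and 14.1. VIM was therefore carried by 1 probe set, and with the log2 fold averaged over both it was 0.57, which does not pass 1.5-fold.

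How often a probe set passed 1.5-fold depended on its brightness. Of 6621 probe sets with a geometric mean signal of 300 to 1000, 10.8% were higher past 1.5-fold in HCC4006ER cells, and the dimmer CDH2 probe set and the second of CDH11 fall in this class. The share was 8.38% of 4831 probe sets at 1000 to 3000, the class of the brightest CDH2 and CDH11 probe sets, and 3.80% of 2898 probe sets above 3000, the class of VIM. At 100 to 300, the class of the CDH11 probe set without a suffix, it was 12.3% of 5899. The brightest CDH1 probe set is in the class above 3000.

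**Figure D2:**
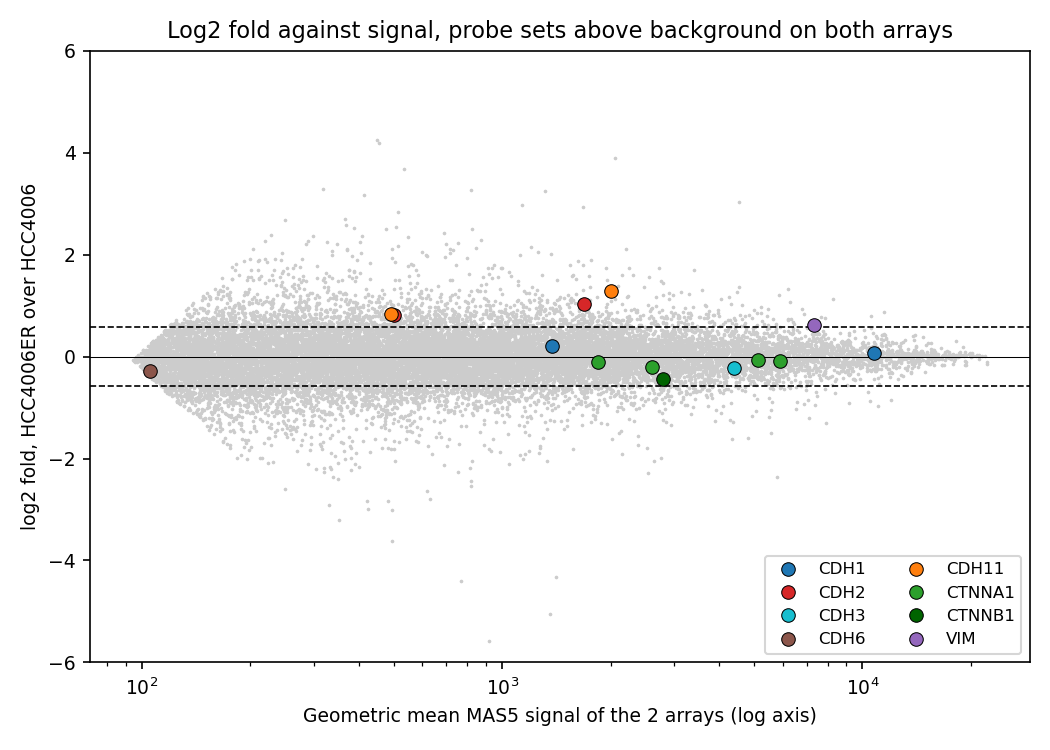
Log2 fold of HCC4006ER over HCC4006 against the geometric mean MAS5 signal (log axis) for probe sets above background on both arrays, with all probe sets in grey, those of the named genes in colour and dashed lines at 1.5-fold. The cloud narrows toward bright signals; CDH2 and CDH11 lie above the upper line at 0.82 to 1.29, VIM lies just above it at 0.61, and CDH1, CDH3, CDH6, CTNNA1 and CTNNB1 lie between the lines.

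The other genes of the junction were read from lists. Of 17 other cadherins, 15 had a probe set and 2 were above background, CDH22 with 171 and 174 and CDH24 with 197 and 172, in HCC4006 and HCC4006ER, both within 1.5-fold. The CDH24 probe sets disagreed, with log2 folds of -0.20 and 1.36. The endothelial cadherin CDH5 read 7.55 and 10.3. No further cadherin of the list was therefore measured above background in the probe set used.

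Other catenins and junction partners were mostly bright and had a median above that of all genes. Of 20 above background, 3 were higher past 1.5-fold, 2 were lower and 15 lay within it, with a median log2 fold of 0.33 beside -0.037 over all genes, of which 7.99% were higher and 11.2% lower. LIMA1 (EPLIN), which links α-catenin to actin filaments, went from 4344 to 9101, which is 2.09-fold higher. All 3 of its probe sets above background were higher, with log2 folds of 0.40 to 1.73, the lowest within 1.5-fold. The actin-binding protein ABLIM1 was 1.74-fold higher, at 1488 and 2587, and the receptor phosphatase PTPRM, which associates with cadherins, was 1.67-fold higher, at 385 and 642. The other PTPRM probe set above background had a log2 fold of 0.34, within 1.5-fold. The nectins, immunoglobulin-like adhesion molecules of the same junction, included both lower genes. NECTIN3 went from 902 to 328, which is 2.75-fold lower, and its other probe set had a log2 fold of -0.45. NECTIN4 was 1.55-fold lower, at 294 and 190. Plakoglobin (JUP), the close relative of β-catenin, read 3681 and 3946 (log2 fold 0.10), vinculin (VCL) 9683 and 12500 (0.37), and afadin (AFDN), the partner of nectins, 1904 and 2449 (0.36). With equal array medians, 8 of these genes were higher and 1 was lower, beside 1475 and 880 of all 11896 genes. Quantile normalization and equal medians over probe sets above background each left 3 higher and 2 lower.

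Of 8 genes of cadherin processing above background, 2 were lower past 1.5-fold and none was higher, with a median log2 fold of -0.35, beside 11.2% lower, 7.99% higher and a median of -0.037 over all genes. APH1A, a subunit of the γ-secretase complex that cuts cadherin tails, went from 3769 to 2206, which is 1.71-fold lower, with all 3 probe sets lower. FURIN, a protease that matures cadherin precursors, was 1.56-fold lower, at 336 and 215. ADAM10, the sheddase of E-cadherin and N-cadherin, had a log2 fold of -0.09. With equal array medians, 1 of the 8 was lower past 1.5-fold, beside 880 of all 11896 genes.

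Of the complex that degrades β-catenin, 9 of 11 members above background lay within 1.5-fold, with a median log2 fold of -0.13, where 19.1% of all genes were past it. The scaffold APC was 1.79-fold lower, at 257 and 144, with both probe sets lower, and BTRC, a subunit of the ubiquitin ligase for β-catenin, was 1.54-fold higher, at 287 and 443. The 3 BTRC probe sets above background had log2 folds of 0.20 to 0.63. AXIN2, a scaffold of the complex and itself a target of the pathway, was not well above background, at 28.1 and 17.8. Of 8 transcription partners and feedback targets of β-catenin above background, BCL9, a coactivator, was 2.03-fold lower, at 389 and 192, and the other 7 lay within 1.5-fold, with a median log2 fold of -0.09 over the 8.

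Beside vimentin, 13 of 20 other intermediate filament and linker genes were above background, and 1 was higher and 2 were lower, beside 7.99% and 11.2% of all genes, with a median log2 fold of -0.17. INA, the neuronal filament protein α-internexin, went from 563 to 2235, which is 3.97-fold higher in its 1 probe set and a larger difference than that of VIM. Nestin (NES) was 1.84-fold lower, at 417 and 226, and plectin (PLEC), which crosslinks intermediate filaments, was 1.65-fold lower, at 611 and 370. The other PLEC probe set above background had a log2 fold of -0.55, within 1.5-fold. Of the type III relatives of vimentin, desmin (DES) and GFAP were not well above background, and peripherin (PRPH) was just above it on both arrays, at 112 and 105. The simple epithelial keratins KRT8, KRT18, KRT19 and KRT7 had log2 folds of 0.43, 0.03, -0.37 and -0.15.

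**Figure D3:**
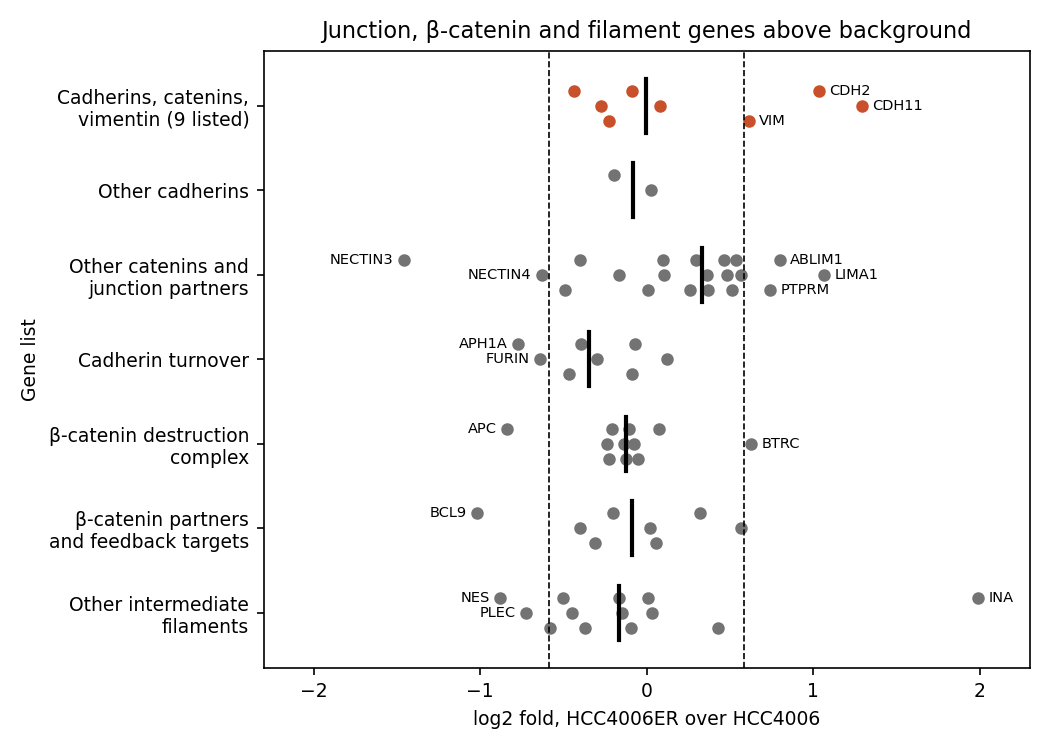
Log2 fold of HCC4006ER over HCC4006 for genes whose brighter signal was above background, in rows by gene list, with each point 1 gene, the black bar the median of the list, dashed lines at 1.5-fold and names for genes past them. The medians lie at -0.0062 for the cadherins, catenins and vimentin, at 0.33 for the junction partners and at -0.35 for cadherin turnover, and INA stands farthest to the right at 1.99.

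In bulk RNA, more cells with a transcript and more of it per cell cannot be told apart. Markers of other cell types were therefore read beside the mesenchymal genes. Of 12 fibroblast markers, 3 were above background in HCC4006 cells and 2 in HCC4006ER cells, with summed signals of 1385 and 1460 over the list and of 794 and 495 without COL1A1. COL1A1 was 1.63-fold higher in its brightest probe set, at 591 and 965, but its 3 probe sets above background disagreed, with 1 higher and 2 lower. FBLN1 was above background on both arrays, at 299.9 and 213, and THY1 in HCC4006 cells, at 125 beside 40.1 in HCC4006ER cells. The other 9, with the defining markers LUM, DCN, COL3A1, PDGFRA and PDGFRB among them, were not above background on either array. Of 8 endothelial markers 1 was above background on each array (summed signals 392 and 329), and of 5 leukocyte markers 1 and 0 were (237 and 135). The part of other cell types in the differences was not tested.

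**Figure D4:**
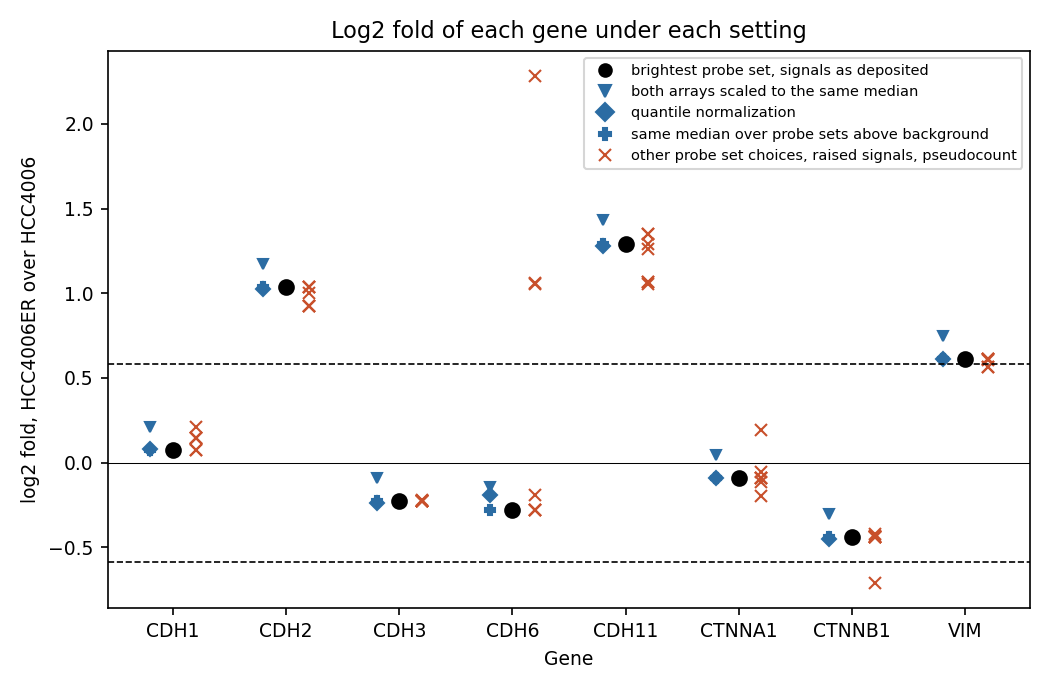
Log2 fold of each of the 8 genes with black circles for the brightest probe set and signals as deposited, blue symbols for other scalings of the arrays, crosses for other choices of probe set, raised signals or a pseudocount, and dashed lines at 1.5-fold. CDH2 and CDH11 stay above the upper line in every setting shown, VIM lies on both sides of it, CDH6 spreads from -0.28 to 2.28, and CDH1 stays between 0.08 and 0.21.

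Across the settings plotted for each gene, the log2 fold of CDH1 ran from 0.08 to 0.21, that of CDH2 from 0.93 to 1.17 and that of CDH11 from 1.05 to 1.43. VIM ran from 0.57 to 0.75, CTNNB1 from -0.71 to -0.30 and CDH3 from -0.24 to -0.09. The lowest CTNNB1 value comes from a probe set under background on both arrays.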

How the data were processed

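Each cell line had 1 HG-U133 array of mixed RNA. The authors deposited 1 MAS5 signal intensity per probe set, linear and with no detection call (GCOS 1.4 is also named in the submitters' processing notes). All 54675 probe sets had a value. Gene names came from the platform annotation with symbols updated through RefSeq (GRCh38.p14), and probe sets with several symbols were not used. Each gene was represented by its probe set of highest mean log2 signal. Log2 folds are HCC4006ER over HCC4006, and the threshold was 1.5-fold, as in the study's methods. With 1 array per line no test was possible, and precision is limited by this number. The genes and lists were chosen with earlier results of these data known. Named list genes were those past 1.5-fold (up to 6 per list, or the 2 largest where none passed). Others, such as JUP, VCL, AFDN, ADAM10, AXIN2, CDH5, DES, GFAP, PRPH, FBLN1, THY1 and the keratins, were named after their values were seen. The computation was tested on simulated data with known differences. Alternatives were other scalings, probe set choices, background levels, a pseudocount of 50 and a 2-fold threshold. Python 3.11.15, numpy 2.4.6, pandas 2.3.3 and matplotlib 3.10.9 were used.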

Additional observations from a re-analysis of the deposited data

How the results depend on the processing

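No paired analysis was possible because each cell line has 1 array. Values were called moved where they differed from the reported one by more than 0.27, the SD between probe sets. The log2 folds of CDH1, CDH2, CDH3, CDH11, CTNNB1 and VIM moved by less than this under every alternative run. CDH6 moved to 1.06 with the mean and 1.05 with the median over all its probe sets and to 2.28 with the probe set that differed most, all from signals not well above background; CTNNA1 moved to 0.19 with the brightest probe set without a suffix, which is also not well above background. CDH1 and VIM have no such probe set. With the mean or the median over all probe sets, the 3 genes higher past 1.5-fold were CDH2, CDH6 and CDH11, without VIM, and with the probe set that differed most 4 were higher and 1, CTNNB1, was lower. With the measured ratio, dim signals not raised, 12 of the 25 probe sets were higher and 1 was lower past 1.5-fold, and a 2-fold threshold left 2 higher. The 12 include every CDH6 probe set under background in HCC4006 cells, and the 1 lower is a CTNNB1 probe set under background on both arrays. With the background level at the 90th and the 99th percentile, 6 and 5 probe sets were higher and 0 were lower. The share of all probe sets past the threshold was not computed for these settings. The CDH2 minus CDH1 difference was 0.78 to 0.94 under 4 alternatives. Over all genes, 58.3% of those past 1.5-fold were lower as deposited and 37.4% with equal array medians (63.4 and 57.7 as deposited, under the background levels of 96.2 and 91.6). It was 56.3% with quantile normalization and 58.4% with equal medians over probe sets above background.

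Among the lists, equal medians gave 8 junction partners higher and 1 lower, 1 cadherin turnover gene lower and 1 β-catenin partner higher. Of all 11896 genes, 1475 were higher and 880 lower with that scaling. At 2-fold, 1 junction partner was higher and 1 lower, and 0 were past it in cadherin turnover, among lower filament genes, in the destruction complex in either direction and among fibroblast markers. With the measured ratio, 1 fibroblast marker and 1 leukocyte marker were lower. The share of all genes at 2-fold or by the measured ratio was not computed.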
